A study of Drosophila melanogaster with 3 samples.

Results

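The 7 genes described here encode proteins of the synaptonemal complex and of meiotic recombination in Drosophila melanogaster: cona, c(3)G, c(2)M, corolla, ord, mei-W68 and mei-218. They were chosen by name from the 17509 genes listed for the unsexed library and the 17753 listed for the female and male libraries, with earlier results of these data in view, and all 7 were found in the 3 libraries. The cells came from embryos and were sorted for green fluorescence before droplet capture with 10x Genomics Chromium single-cell 3' kits. The unsexed library came from vas-GFP embryos aged 0 to 8 h with kit version 2. Both sexed libraries came from embryos aged 5 to 8 h that carried Sxl-GFP beside vas-GFP, with kit version 3. All 3 groups thus share the vas-GFP reporter of germ cells. Each group is a single library without replicates, so differences could not be tested, and every interval below is at 95% and covers counting error only.

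The synaptonemal complex is the protein ladder that joins paired homologous chromosomes along their length in meiotic prophase. In flies it forms in the ovary, in the germline cells that will become oocytes, and it is built in the same cells in which programmed DNA breaks are made and repaired into crossovers. Drosophila males pair their chromosomes without a synaptonemal complex and without crossing over. The embryonic germ cells studied here, called pole cells when they first form at the posterior of the embryo, are far from meiosis. They hold back transcription early on through Pgc, the polar granule component protein, whose maternal RNA is lost as they develop.

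Germ cells were defined as cells with a unique molecular identifier (UMI), the tag that marks 1 captured RNA molecule, for at least 3 of 7 germ genes: vas, nos, pgc, zpg, aub, CG17650 and CG14545. No member is among them. This gave 3198 germ cells of 3657 cells in the unsexed library, 1073 of 9430 in the female library and 4377 of 6329 in the male library. All remaining cells had at most 2 of the germ genes and are called other cells. Germ cells were divided by their pgc level in counts per 1000000 UMIs (CPM): pgc-high cells had at least 1000 CPM, pgc-middle cells 200 to under 1000 CPM, pgc-low cells more than 0 and under 200 CPM, and pgc-none cells no pgc UMI. The 4 classes held 887, 561, 713 and 1037 unsexed cells, 75, 180, 221 and 597 female cells, and 402, 779, 532 and 2664 male cells. In a cell with fewer than 5000 UMIs a single pgc UMI already exceeds 200 CPM, so the classes depend on depth.

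Depth differed between the libraries. Total UMIs were 58378567 (unsexed), 109431813 (female) and 47345241 (male), and the median germ cell had 16950, 18539 and 7718 UMIs. The median other cell had 3765, 6888 and 3861 UMIs. Of the cell barcodes, 1 was shared by the unsexed and female libraries, 17 by the female and male libraries and 0 by the unsexed and male libraries. Kit version and embryo age differ together between the unsexed library and the sexed ones, and neither can be told apart from group there. A level in summed UMIs also cannot tell fewer expressing cells from less RNA per cell.

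The threshold of the germ-cell rule cut differently in the 3 libraries. Unsexed cells with exactly 3 germ genes (82 cells) had 35.2 CPM of c(3)G, and those with exactly 2 (75 cells) had 17.0 CPM. In the female library c(3)G was at 65.3 CPM in the 83 cells with 3 germ genes and at 12.3 CPM in the 241 cells with 2. In the male library it was at 169 CPM in the 978 cells with 3 and at 151 CPM in the 410 cells with 2. The male other cells therefore included cells with nearly the germ-cell level of c(3)G, which bears on every comparison with other cells in that library.

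The members lie on 4 chromosome arms. In the BDGP6 build (Ensembl annotation 115), cona (FBgn0038612) lies at 3R:18385828-18386887 on the positive strand and c(3)G (FBgn0000246) at 3R:15789473-15792579 on the negative strand. The gene c(2)M (FBgn0028525) lies at 2L:16303264-16305940 on the positive strand. Of the autosomal remainder, ord (FBgn0003009) lies at 2R:23271257-23275536 on the negative strand and mei-W68 (FBgn0002716) at 2R:19456170-19459523 on the positive strand. The 2 X-linked members are corolla (FBgn0267967), at X:17629791-17632047, and mei-218 (FBgn0002709), at X:17135985-17142990, both on the negative strand. A same-strand overlap makes the counts of mei-W68 and mei-218 uncertain. All 3354 bases of mei-W68 lie inside par-1 on the same strand, and mei-218 shares 6413 bases with mei-217 on the same strand. No UMI was assigned to mei-217 in any class of any library. The genes cona, c(3)G, c(2)M and mei-218 also overlap a gene on the opposite strand, by 47, 22, 140 and 4 bases, and whether the counting used strand is not given in the sources used here.

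How the members differ with pgc level was asked by comparing pgc-none with pgc-high cells. A pgc class is not an embryo age, since the unsexed embryos spanned 0 to 8 h and those of both sexed libraries 5 to 8 h. The same class was therefore not taken as the same stage in different libraries. A gene was called when its CPM differed at least 4-fold, among genes with at least 5 CPM in 1 class and at least 50 UMIs over both. Of the 7 members, 6 passed that filter in each library and mei-W68 did not. In the unsexed library cona and ord were called higher in pgc-none cells, 2 of the 6, where 6.39% of all 6615 genes tested were called higher and 4.37% lower. Among female cells cona alone was called, where 2.21% of 6735 genes were higher and 1.31% lower. In the male library cona alone was called, where 0.521% of 6716 genes were higher and 0.953% lower. No member was called lower in any library.

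The largest difference was that of cona (corona), a central region protein needed for the transverse filaments to assemble. Its unsexed level was 0.552 CPM in pgc-high cells, 2.48 CPM in pgc-middle, 15.7 CPM in pgc-low and 35.7 CPM in pgc-none cells. These rest on 8, 21, 195 and 620 UMIs, and none of the neighbouring intervals overlapped. The pgc-none level was 64.6 times the pgc-high level (interval 32.6 to 150). Of the 6615 genes tested, 6605 had a lower log2 ratio.

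Female cells held cona at 1.84, 7.32, 13.7 and 26.5 CPM from pgc-high to pgc-none cells. The ratio of 14.4 (3.95 to 119) rests on 2 UMIs in the 75 pgc-high cells. It was 4.81 (2.77 to 9.14) when pgc-high cells were taken from 500 CPM and 7.24 in the deeper count tables. With pgc read after thinning to 5000 UMIs, in cells with at least that many, it was 5.78. In the male library cona was at 9.91, 13.6, 23.5 and 43.1 CPM, a ratio of 4.35 (2.93 to 6.76). That ratio sat near the 4-fold limit. It was 3.92 with a germ-cell rule that left pgc out, 3.99 with pgc read after thinning and 3.54 in cells with at least 5000 UMIs, so the male call was lost under these settings.

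The order of the 4 point values was the same for cona in all 3 libraries, although pgc-middle over pgc-high had intervals that included 1 in the female (3.97, 0.981 to 34.8) and male (1.37, 0.867 to 2.25) libraries. The male pgc-high level was 9.91 CPM (6.41 to 14.6), above the unsexed level of 0.552 CPM (0.238 to 1.09), and the female level of 1.84 CPM (0.223 to 6.66) overlapped both.

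**Figure D1:**
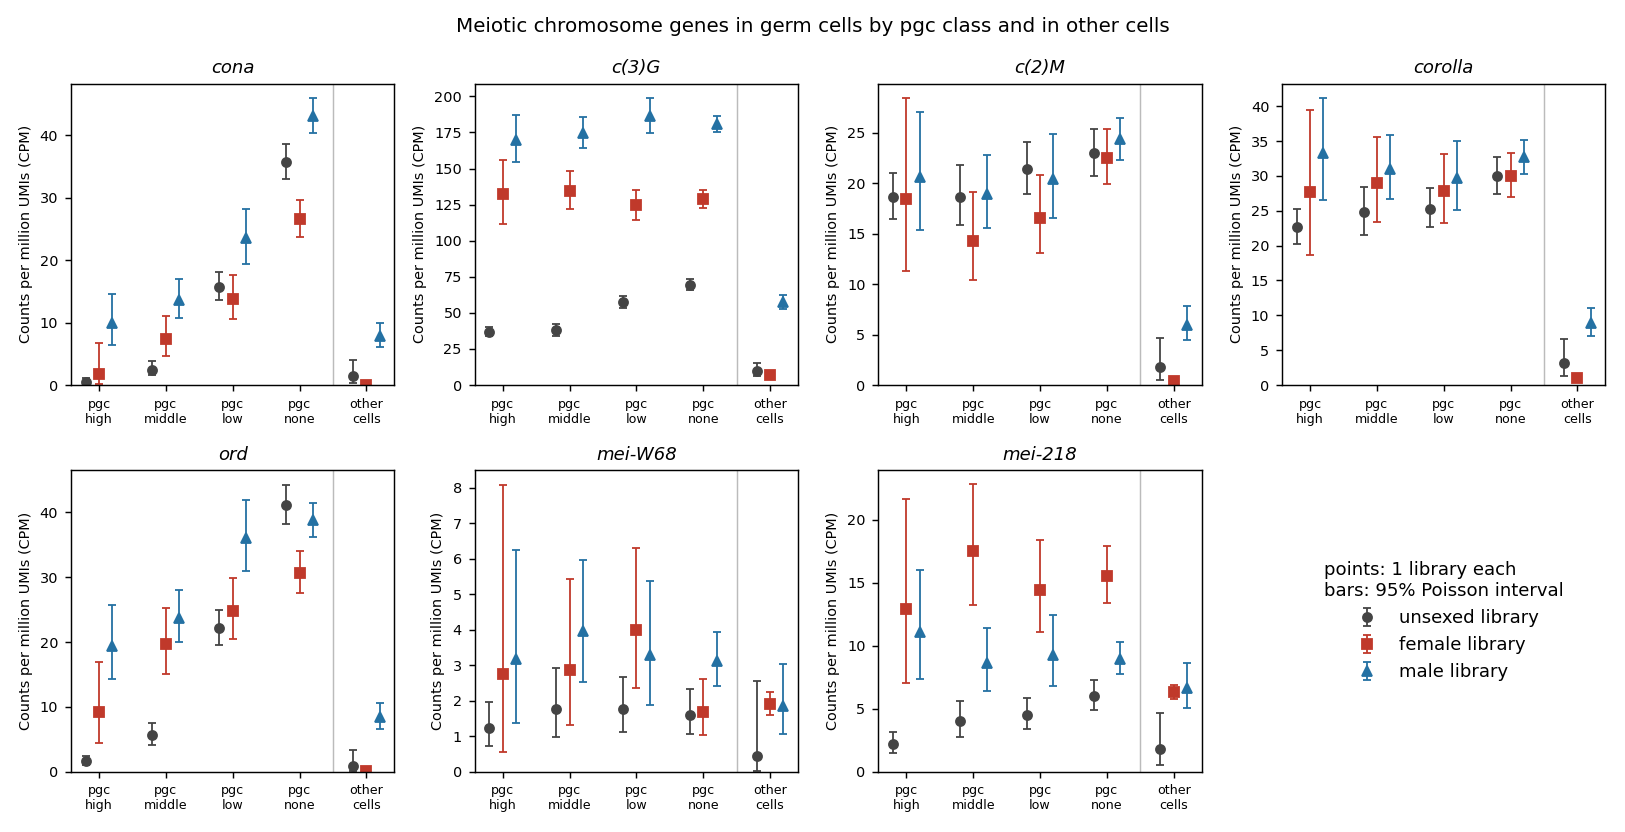
Levels in CPM (vertical axes, 1 panel per gene) of the 7 members in the 4 pgc classes of germ cells and in other cells, with 1 point per library and bars for the 95% Poisson interval. The levels of cona and ord climb from pgc-high to pgc-none cells in every library, from 0.552 to 35.7 CPM for cona in the unsexed one, while c(2)M and corolla stay within 14.3 to 24.3 and 22.6 to 33.3 CPM in germ cells.

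The gene ord (orientation disruptor) encodes a protein of sister chromatid cohesion that also keeps the synaptonemal complex in place. Unsexed cells held ord at 1.59, 5.66, 22.1 and 41.1 CPM from pgc-high to pgc-none cells, a ratio of 25.9 (17.1 to 41.2), and 6597 of 6615 genes had a lower log2 ratio. The 4 intervals did not overlap. Female cells held ord at 9.21, 19.7, 24.8 and 30.7 CPM, a ratio of 3.33 (1.79 to 7.00), and in the male library at 19.4, 23.8, 36.1 and 38.8 CPM, a ratio of 2.00 (1.498 to 2.72). Both sexed ratios missed the 4-fold limit, and both intervals lay above 1.

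The transverse filament protein of the complex, which spans the gap between homologues, is encoded by c(3)G. In the unsexed library it was at 36.8, 38.1, 57.5 and 69.4 CPM, a ratio of 1.88 (1.70 to 2.09). The intervals of pgc-high and pgc-middle cells overlapped, and those of pgc-low and pgc-none cells each lay above the class before. The 4 female values were 133, 135, 125 and 129 CPM, a ratio of 0.971 (0.818 to 1.16), and in the male library 170, 175, 187 and 181 CPM, a ratio of 1.06 (0.963 to 1.18). Both of these intervals included 1, but other settings moved them. In the deeper count tables the male values were 162 CPM in pgc-high and 183 CPM in pgc-none cells, a ratio of 1.13 (1.06 to 1.20), and under scaling by the trimmed mean of M-values (TMM) the male ratio was 1.16 (1.05 to 1.29). With germ cells taken from at least 2 of the 7 germ genes the female ratio was 0.764 (0.643 to 0.912). Over all unsexed, female and male germ cells its level was 52.6, 129 and 180 CPM, a spread that crosses kit version and embryo age.

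The lateral element protein C(2)M, which sits along each chromosome axis, and the central region protein Corolla had nearly level RNA. In the unsexed library c(2)M was at 18.6, 18.6, 21.4 and 23.0 CPM, a ratio of 1.23 (1.05 to 1.44), and corolla at 22.6, 24.8, 25.3 and 30.0 CPM, a ratio of 1.32 (1.15 to 1.53). The median gene had a log2 ratio of 0.21 in this comparison, and TMM scaling shifted all log2 ratios down by 0.31. Under TMM the share of called genes that were higher was 46.0%, against 59.4% without it, and the ratio of c(2)M was 0.992 and that of corolla 1.07. No direction is therefore given for these 2 genes. In the sexed libraries their ratios were 1.22 and 1.18 for c(2)M, and 1.09 and 0.982 for corolla, each with an interval that included 1. With male pgc-high cells taken from 500 CPM the ratio of c(2)M was 1.30 (1.04 to 1.64).

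The gene mei-218 encodes a protein related to the replicative MCM helicase that promotes crossovers by restraining the Blm helicase. In the unsexed library it was at 2.21, 4.01, 4.50 and 5.99 CPM, a ratio of 2.71 (1.81 to 4.17), which rests on 32 and 104 UMIs. It missed the 4-fold limit. The female values were 12.9, 17.5, 14.4 and 15.5 CPM, and in the male library 11.1, 8.62, 9.28 and 8.92 CPM, with ratios of 1.20 and 0.804 whose intervals included 1.

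The fly Spo11 protein, which makes the DNA breaks that start recombination, is encoded by mei-W68. Its RNA was too low to compare by pgc class. Over all unsexed, female and male germ cells 83, 50 and 115 UMIs were counted, or 1.57, 2.43 and 3.28 CPM. Female other cells held 1.90 CPM (1.60 to 2.24), so the female germ-cell level, with an interval of 1.80 to 3.20 CPM, was not separable from them (ratio 1.28, 0.905 to 1.78). Male germ cells lay above male other cells by a ratio of 1.76 (1.04 to 3.19), and above those with none of the germ genes by 5.08 (1.70 to 25.0), which rests on 3 UMIs in the latter. The unsexed ratio of 3.44 (0.600 to 137) rests on 1 UMI in other cells.

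On a finer scale of pgc, chosen after the 4 classes had been seen, the unsexed values of cona were 0.240 CPM in cells with at least 4000 CPM of pgc, 1.05 at 2000 to 4000, 0.216 at 1000 to 2000 and 1.29 at 500 to 1000. They were then 3.48 CPM at 200 to 500, 8.00 at 100 to 200, 20.4 above 0 to 100 and 35.7 in cells with no pgc UMI. For ord the same 8 ranges gave 2.40, 1.41, 1.08, 3.09, 7.83, 17.5, 25.0 and 41.1 CPM. Above 1000 CPM of pgc both genes were low, and the intervals of the ranges overlapped. There cona had no order and ord went down from 2.40 to 1.08 CPM as pgc fell. The unsexed values of both genes then went up at each step down to 0. The sexed libraries did not show that order at every step. From 1000 to 2000 CPM of pgc down to 0 the 6 female values of cona were 2.29, 8.66, 6.41, 11.99, 14.5 and 26.5 CPM, and those of ord were 9.18, 18.1, 20.8, 16.9, 28.4 and 30.7 CPM. The male values of cona were 11.5, 9.77, 16.4, 21.7, 27.5 and 43.1 CPM, and those of ord were 19.2, 22.8, 24.5, 36.7, 34.7 and 38.8 CPM. At each step that went down the intervals of the neighbouring ranges overlapped. The 2 highest ranges held 15 and 2 female cells and 103 and 23 male cells, with at most 3 UMIs of cona in any of them.

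**Figure D2:**
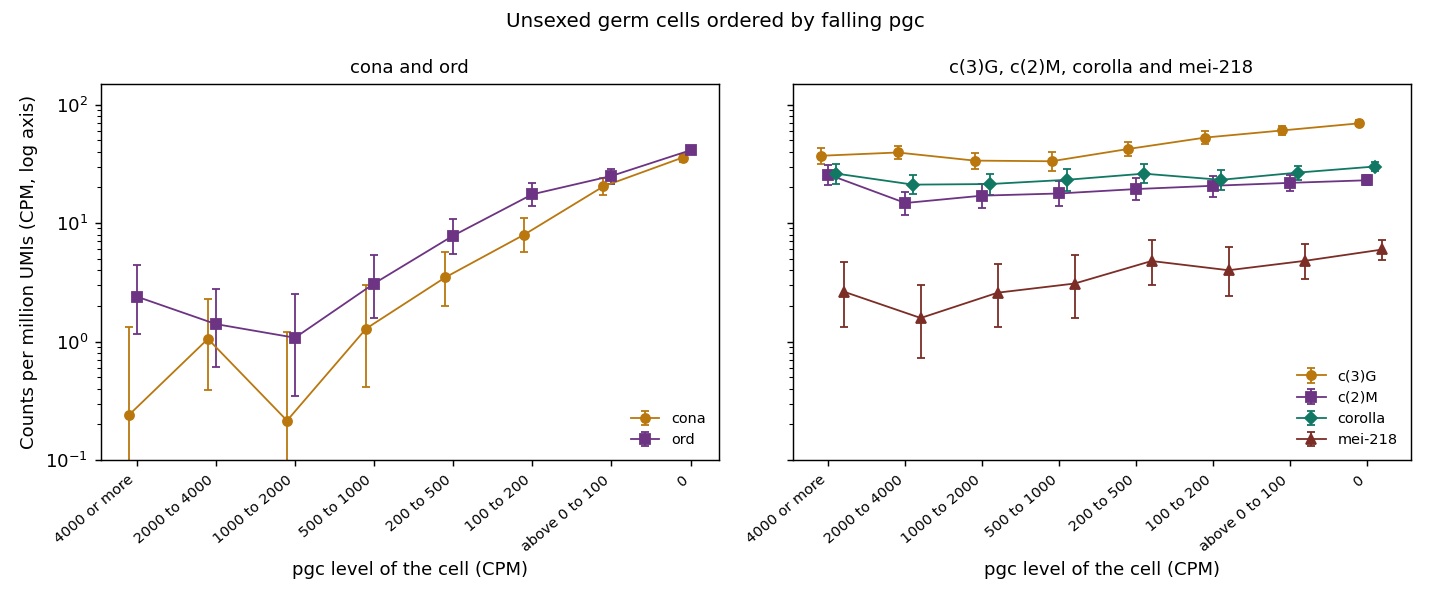
Levels in CPM (vertical log axis) of 6 members in unsexed germ cells placed in 8 ranges of falling pgc level (horizontal axis, CPM of pgc in the cell), with bars for the 95% Poisson interval. The values of cona and ord lie between 0.216 and 2.40 CPM above 1000 CPM of pgc and reach 35.7 and 41.1 CPM at 0, and the 4 genes in the right panel span much narrower ranges.

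The share of single cells with a UMI followed the same order. Only cells with at least 3000 UMIs were thinned, to 3000 UMIs. This left out 145 of 459 unsexed, 384 of 8357 female and 633 of 1952 male other cells. After thinning, cona was detected in 0.113% of unsexed pgc-high cells and 9.51% of pgc-none cells, and in 0.318% of unsexed other cells. The first and last of these shares are 1 cell each. As counted, over all cells without thinning, the shares were 0.902%, 38.8% and 0.436%. Among female cells the thinned share was 0 of 74 pgc-high cells (exact upper limit 4.86%) and 6.20% of pgc-none cells. Among female other cells it was 0.0125%, which is 1 cell. In the male library it was 1.58% (exact binomial interval 0.582 to 3.40) and 10.7%. The male other cells, which include cells near the germ-cell level, had 2.05%. Of the 681 with none of the germ genes and at least 3000 UMIs, 0 had a cona UMI after thinning (exact upper limit 0.540%). For ord the thinned shares in pgc-high and pgc-none cells were 0.452% and 11.3% (unsexed), 1.35% and 7.37% (female), and 5.26% and 10.3% (male).

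Members were also found together in single cells. As counted, UMIs for at least 3 of the 7 members were present in 5.41% of unsexed pgc-high cells and 44.2% of pgc-none cells, at medians of 16363 and 17505 UMIs per cell. UMIs of both cona and ord were present in 0.113% and 22.9% of them. Singly, cona was present in 0.902% and 38.8% of these cells and ord in 2.59% and 44.7%. Whether the 2 genes met in cells more often than these single shares give was not tested. After thinning, both genes were seen together in 0 of 884 pgc-high cells, where 3 cells would be 0.339%, and in 1.26% of pgc-none cells. The female joint share as counted was 1.33% in pgc-high and 15.9% in pgc-none cells, and in the male library 1.24% and 7.85%.

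Markers of other cell types also differed between the pgc classes. The summed level of 8 neural markers was 22.1 CPM in unsexed pgc-high cells (1 marker at 0) and 45.9 CPM in pgc-none cells, against 495 CPM in other cells. The female sum was 88.5 CPM in pgc-high cells (2 markers at 0) and 324 CPM in pgc-none cells, against 1337 CPM in other cells, and in the male library 61.4 CPM (3 at 0) and 94.5 CPM, against 1210 CPM. The sum of 7 mesoderm markers went from 130 to 214 CPM, from 178 to 286 CPM and from 170 to 274 CPM in the unsexed, female and male libraries. Epidermal and tracheal markers, 7 genes, went down from 72.6 to 7.02 CPM in the unsexed library, where all 3 that passed the filter were called lower. Their sum went from 14.7 to 54.3 CPM among female cells, with 1 of 2 called higher, and from 19.0 to 15.1 CPM in the male library, with none called. Of the neural markers 4 of 7 that passed the filter were called higher in female pgc-none cells, 1 of 2 in unsexed and none of 3 in male ones. Over all genes tested 6.39%, 2.21% and 0.521% were called higher, and 4.37%, 1.31% and 0.953% lower, in the unsexed, female and male libraries. The mesoderm marker twi was called lower in the unsexed library. The sum of 6 haemocyte and endoderm markers was 129 and 152 CPM in unsexed, 124 and 112 CPM in female and 132 and 127 CPM in male pgc-high and pgc-none cells, with none called. The part of the epidermal, tracheal, mesoderm, haemocyte and endoderm lists in the values of the members was not tested. In unsexed germ cells without any neural marker UMI, a choice made after these levels were seen, the ratios of cona and ord were 72.6 and 24.6, and in such male cells 6.37 and 2.56. Only 37 female pgc-high cells met that condition, too few for a ratio.

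Genes of related meiotic roles came from lists drawn up with earlier results of these data known. Of all 6615 genes tested in the unsexed library, 6.39% were called higher in pgc-none cells and 4.37% lower. Of 11 other cohesion genes, 2 were called higher in unsexed pgc-none cells and none lower, with a median log2 ratio of 0.11 against 0.21 for all genes tested. They were solo, at 0.966 and 5.24 CPM (ratio 5.42, 3.07 to 10.3), and sunn, at 0.276 and 7.31 CPM (ratio 26.5, 10.1 to 98.7). Both encode meiosis-specific cohesion proteins. The count of solo is uncertain, since it shares 10478 bases with vas on the same strand. Of 6 other genes of double-strand break formation, 5 passed the filter, 1 was called higher and none lower, with a median log2 ratio of 0.95. It was vilya, which encodes a RING finger protein that binds the central region and the break machinery, at 1.03 and 20.5 CPM (ratio 19.9, 11.9 to 35.8).

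None of 4 testable genes among 7 other mei-MCM and crossover genes, and none of 8 testable genes among 9 repair and checkpoint genes, was called in the unsexed library. The shares over all genes there were 6.39% higher and 4.37% lower. Of 10 chromosome segregation genes, none was called higher and 2 lower. They were mtrm, which encodes the Polo kinase inhibitor Matrimony, at 250 and 21.7 CPM (ratio 0.0867, 0.0777 to 0.0964), and alphaTub67C, a maternal tubulin, at 322 and 78.7 CPM (ratio 0.245, 0.230 to 0.260). The count of mtrm is uncertain because it shares 1092 bases with Exo70 on the same strand. Of 7 germline differentiation genes 2 were called higher, bgcn at 1.10 and 28.0 CPM and Rbp9 at 2.35 and 21.7 CPM. The median log2 ratio of these 7 was -0.52 against 0.21 for all genes tested, and their summed level went down from 945 to 662 CPM. The gene bgcn shares 983 bases with Pym on the same strand.

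In the sexed libraries fewer of these genes were called, and so were fewer of all genes tested. Over all genes 2.21% were called higher and 1.31% lower in the female library, and 0.521% and 0.953% in the male library. In the unsexed library these shares were 6.39% and 4.37%. Among female cells rec, a mei-MCM gene, was higher in pgc-none cells, at 1.84 and 9.10 CPM (ratio 4.94, 1.33 to 41.3), and mtrm and alphaTub67C were lower. In the male library vilya was higher, at 1.98 and 12.9 CPM (ratio 6.49, 2.75 to 20.1), and mtrm was lower. None of the 9 repair and checkpoint genes, the 11 other cohesion genes or the 7 differentiation genes was called in either of them.

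Female and male germ cells, which share kit version and embryo age, were compared to ask whether the members already differ between the sexes. At a limit of 2-fold, none of the 6 members that passed the filter was called, where 2.21% of 6734 genes were called higher in female cells and 0.149% lower. Smaller differences were present in both directions. Female and male germ cells held 19.5 and 33.1 CPM of cona, a ratio (female over male) of 0.589 (0.524 to 0.660), and c(3)G was at 129 and 180 CPM, a ratio of 0.717 (0.685 to 0.751). The level of ord was 26.6 and 34.5 CPM, a ratio of 0.770 (0.695 to 0.852), and that of c(2)M was 19.7 and 22.6 CPM, a ratio of 0.872 (0.772 to 0.984). For mei-218 the levels were 15.4 and 9.08 CPM, a ratio of 1.70 (1.45 to 1.99). For corolla the levels were 29.3 and 32.0 CPM, a ratio of 0.913 (0.826 to 1.01), and for mei-W68 2.43 and 3.28 CPM, a ratio of 0.739 (0.519 to 1.04). Both of these intervals included 1.

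The chromosome of each member sets what it can be read against. Autosomal genes had a median female to male ratio of 0.932 over 5462 genes, and X-linked genes one of 1.45 over 1214 genes. Of the autosomal genes 20 had a lower log2 ratio than cona, 129 a lower one than c(3)G, 301 a lower one than ord and 1489 a lower one than c(2)M. Of the 1214 X-linked genes only 11 had a lower log2 ratio than corolla, which placed it near their low end. For mei-218, above the X-linked median but not near the high end, 938 had a lower one. The interval of mei-218 began at 1.45, close to the X-linked median.

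Within the pgc classes the ratios were as follows. For cona the female to male ratio was 0.186 (0.0214 to 0.746) in pgc-high, 0.538 in pgc-middle, 0.584 in pgc-low and 0.616 (0.540 to 0.700) in pgc-none cells. The pgc-high value of cona rests on 2 female and 25 male UMIs, too few to pass the filter. In the deeper count tables that value was 0.504 (0.156 to 1.26), an interval that included 1. For c(3)G it was 0.781, 0.771, 0.668 and 0.713, and for ord 0.475, 0.830, 0.687 and 0.791. The interval of ord included 1 in pgc-middle cells (0.605 to 1.13). For mei-218 the ratio was 1.16, 2.03, 1.55 and 1.74. Its interval included 1 in pgc-high cells (0.566 to 2.28), on 14 female and 28 male UMIs. Of female germ cells 55.6%, and of male germ cells 60.9%, had no pgc UMI.

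Depth and other cell types differed between the 2 sexed libraries as well. In the deeper count tables the ratios were 0.650 (0.590 to 0.715) for cona, 0.724 for c(3)G, 0.772 for ord and 1.74 for mei-218. Neural markers summed to 239 CPM (female) and 88.9 CPM (male), and 6 of the 8 were called higher in female cells, where 2.21% of 6734 genes were. Epidermal and tracheal markers summed to 45.4 and 16.0 CPM. In the 220 female and 2593 male germ cells with no neural marker UMI, a comparison added after seeing the data, cona was at 13.3 and 27.7 CPM, a ratio of 0.480 (0.347 to 0.650). There ord was at 14.2 and 32.4 CPM, a ratio of 0.437 (0.320 to 0.585), and these 2 members were called lower in female cells, where 1.84% of 6621 genes were called higher and 1.95% lower. This choice of cells also changed the pgc classes, since 39.1% of these female and 58.2% of these male cells had no pgc UMI. Within those pgc-none cells, 86 female and 1510 male, cona was at 25.3 and 37.8 CPM, a ratio of 0.669 (0.462 to 0.940). There ord was at 23.9 and 38.1 CPM, a ratio of 0.628 (0.429 to 0.890), and neither reached 2-fold. Over all germ cells with no neural marker UMI c(3)G had a ratio of 0.787 and mei-218 one of 1.62. Female other cells held 6.30 CPM of mei-218 and male other cells 6.63 CPM, and the part that RNA from other cells has in the mei-218 values was not tested.

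**Figure D3:**
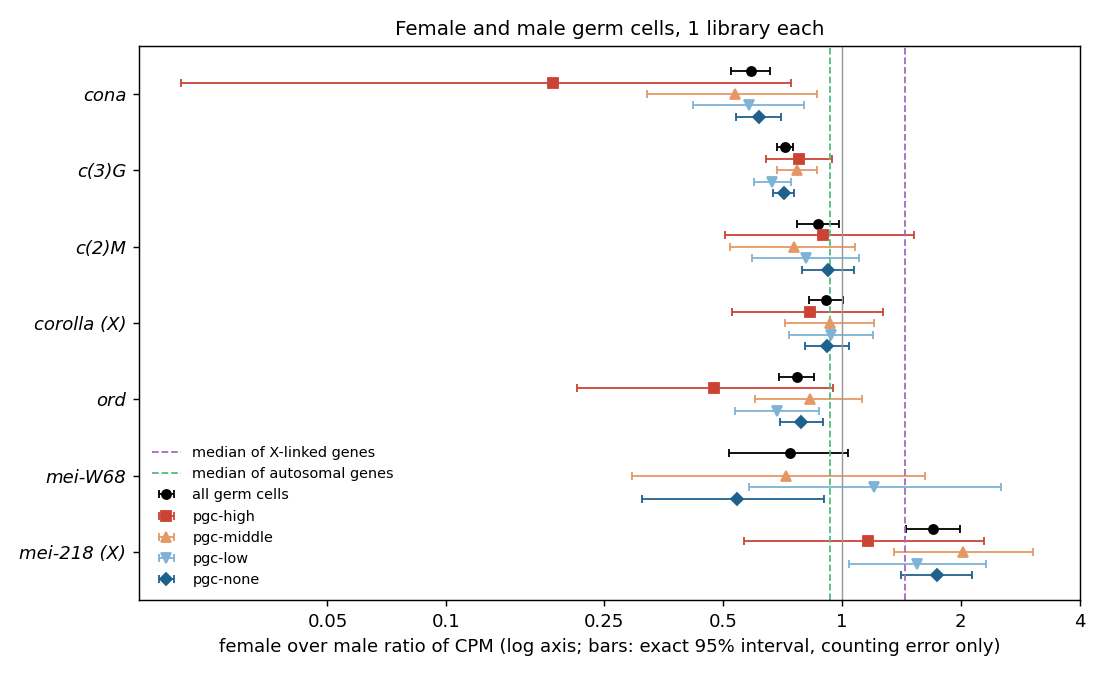
Female over male ratios of CPM (horizontal log axis) for the 7 members over all germ cells and within each pgc class, with bars for the exact 95% interval and dashed lines at the medians of autosomal (0.932) and X-linked (1.45) genes. A class with under 20 UMIs over both libraries is not drawn. The points of cona, c(3)G and ord lie below 1 in every class drawn, and those of mei-218 above 1. The intervals of ord in pgc-middle cells and of mei-218 in pgc-high cells include 1. The pgc-high point of cona rests on 2 female and 25 male UMIs.

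Genes that went up with the loss of pgc were compared as a group between the sexes. The 285 autosomal genes that were at least 4-fold higher in unsexed pgc-none than pgc-high cells, and that could be compared in the sexed libraries, had a median female to male ratio of 0.835. The other 5177 autosomal genes had a median ratio of 0.936. These 285 genes include cona and ord, which passed the same 4-fold call in the unsexed data, so their places in the list are a description only. Of the 285 genes 6 had a lower log2 ratio than cona and 87 a lower one than ord. Whether the sex ratios of cona and ord go with those of this list was not tested. Within pgc-none cells the medians were 0.840 over 290 and 0.928 over 5193 genes. No other meiotic list had a gene called between the sexes: 0 of 11 cohesion, 5 break formation, 4 mei-MCM and crossover, 9 repair and checkpoint, 10 segregation and 7 differentiation genes that passed the filter. Of all 6734 genes tested 2.21% were called higher in female cells and 0.149% lower. At these shares lists this short would hold few calls or none.

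Germ cells were then compared with other cells of the same library to ask how far the members mark the germline. In the female library 5 members were called at least 4-fold higher in germ cells, where 15% of 7263 genes were called higher and 11.2% lower. They were cona at 19.5 and 0.0688 CPM (ratio 283, 120 to 878), ord at 26.6 and 0.193 CPM (ratio 138), c(2)M at 19.7 and 0.372 CPM (ratio 53.1), corolla at 29.3 and 1.02 CPM (ratio 28.7) and c(3)G at 129 and 6.96 CPM (ratio 18.5). The same 5 were each detected in fewer than 1% of female other cells apart from c(3)G, at 5.29%. The remaining 2 were not called. The level of mei-218 was 15.4 CPM in germ and 6.30 CPM in other cells, a ratio of 2.45, and that of mei-W68 was 2.43 and 1.90 CPM.

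In the unsexed library 5 members passed the filter and all 5 were called higher in germ cells, where 9.39% of 6817 genes were called higher and 7.94% lower. The ratios were 21.98 for ord, 11.7 for cona, 11.3 for c(2)M, 8.13 for corolla and 5.23 (3.45 to 8.36) for c(3)G. These ratios moved with the choice of cells and scaling. That of corolla ranged from 4.95 to 21.4, that of cona from 10.7 to 26.3, that of ord from 17.9 to 33.0 and that of c(3)G from 3.69 to 8.16, so the call of c(3)G was lost at the lowest value, with a germ-cell rule that left pgc out. The other cells contributed only 2 to 22 UMIs per gene. In the 214 with none of the germ genes no UMI of cona, c(2)M, ord or mei-W68 was counted (exact upper limit 4.76 CPM). For mei-218 the ratio of 2.34 rests on 4 UMIs in other cells.

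In the male library 2 members were called, cona at 33.1 and 7.79 CPM (ratio 4.25, 3.32 to 5.52) and ord at 34.5 and 8.49 CPM (ratio 4.07, 3.21 to 5.22), where 1.98% of 7206 genes were called higher and 9.45% lower. The ratios of c(2)M, corolla and c(3)G were 3.82, 3.62 and 3.14. These values depended on which cells counted as other. In the 731 male other cells with 1 or 2 germ genes c(3)G was at 113 CPM and cona at 16.4 CPM, and in the 1221 with none c(3)G was at 10.1 CPM and cona at 0.431 CPM. Against the latter all 5 were called, where 14% of 7230 genes were called higher and 10.7% lower, with ratios of 76.9 for cona, 53.5 for ord, 21.0 for c(2)M, 18.6 for corolla and 17.8 for c(3)G. Under TMM scaling, which moved the log2 ratios down by 0.19, none was called, where 0.958% of genes were called higher and 10.4% lower. In the female library TMM moved them down by 0.51 and the share of called genes that were higher from 57.4% to 42.1%, and 5 members were called as before, where 10.5% of genes were called higher and 14.4% lower.

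**Figure D4:**
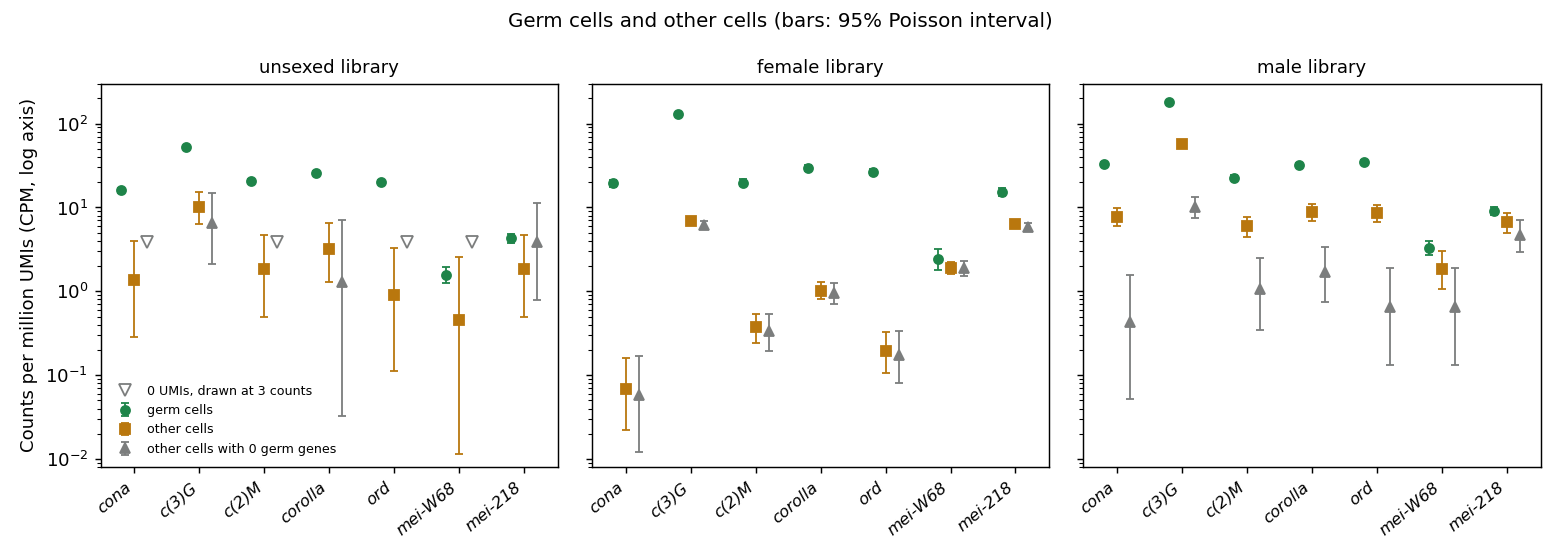
Levels in CPM (vertical log axis) of the 7 members in germ cells, other cells and other cells with 0 germ genes, with 1 panel per library and bars for the 95% Poisson interval. Open triangles mark genes with 0 UMIs at the value that 3 counts would give, and male other cells lie far closer to germ cells (57.4 CPM of c(3)G against 180 CPM) than male other cells with 0 germ genes (10.1 CPM).

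Other genes of break formation were called beside the members. Among female cells vilya, narya and nenya, which encode related RING finger proteins, were 171, 57.0 and 130 times higher in germ cells, 3 of 5 that passed the filter. The file lists narya as CG12200 and nenya as CG31053, matched here by identifier. In the unsexed library the same 3 were 11.1, 8.94 and 10.1 times higher, and in the male library none of 5 was called. Of 11 other cohesion genes, 2 were called in the female library (sunn and san), none in the unsexed library and 2 in the male library (solo and sunn). Of 9 repair and checkpoint genes 6 were called in the female library, among them lok, the checkpoint kinase Chk2, at 422 and 32.9 CPM, against 2 in the unsexed and 1 in the male library. All 7 differentiation genes were called in the female library, 5 in the unsexed and 3 in the male. Of all genes tested 15%, 9.39% and 1.98% were called higher in the female, unsexed and male libraries. The repair and differentiation counts thus had the same order of libraries as the shares over all genes.

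Likeness between genes was described by Pearson's r of log2(CPM + 1) over 15 points, the 4 pgc classes and the other cells of each library. Points of one library share its kit, depth and sort, so r is a description only. Among the members c(2)M and corolla were most alike (r = 0.988), and cona was most like ord (r = 0.943). Of 7337 genes, those most like cona were tsu (r = 0.977), CG42591 (0.974) and RpS19b (0.973). For tsu the whole range was 347 to 532 CPM, and for RpS19b 1.86 to 82.2 CPM. The gene most like ord was CG15398 (0.994), that most like c(2)M was GstO2 (0.993) and that most like corolla was CG13551 (0.995). For c(3)G they were CR44003 (0.988), mRpL48 (0.985) and CG12200 (0.982), the last being narya. The 3 most like mei-218 were Upf1, CG11448 and CG3711, with r from 0.975 to 0.978, all X-linked as mei-218 is. For mei-W68, whose counts were low, the highest r was 0.930, for CG5645.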

How the data were processed

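Cell sorting, library kits and embryo ages are as the labels give them. The deposited matrices hold counts of UMIs per gene and cell. They were made by the authors with Cell Ranger on the BDGP6 build, per the submitters' processing notes, and the file headers give software versions 3.0.1 (unsexed) and 3.1.0 (female and male). The annotation release and the use of strand are not given in the sources used here. The deposited dense count tables of the female and male libraries hold the same cells at a median of 1.19 and 2.52 times the depth and served as an alternative, and the reason for their depth is not stated. The dense table of the unsexed library held the values of its matrix and was not used.

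Kept cells had 1000 UMIs or more, 500 genes or more and no more than 20% of UMIs from mitochondrial genes. Mitochondrial UMIs were 1.79% in the unsexed library and 0 in the sexed ones, and were left out of CPM. Doublets were scored with Scrublet (scanpy 1.11.5). Its own threshold marked 26, 389 and 5 cells, so the highest-scoring 0.8% per 1000 cells were removed (114, 845 and 358 cells). UMIs were summed per class and library. Levels carry exact Poisson intervals, ratios exact conditional intervals, and a class at 0 UMIs was read at a floor of 3 counts when genes were called. No interval covers variation between embryos. TMM factors came from edgeR 4.0.16. The scripts were tested on simulated data.

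Named genes were the 7 members, listed genes past a limit, at most 4 per list, and the 3 genes most like each member. Members, lists and limits were chosen with earlier results of these data known. Identifiers matched the Ensembl annotation for 99.4% of unsexed and 99.3% of female and male features. Alternatives covered scaling, doublets, the germ-cell rule, pgc limits, depth, filters and fold limits.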

Additional observations from a re-analysis of the deposited data

Results flagged for a closer look

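The female and male dense count tables hold 617 and 466 barcodes that are not in the matrices, and no comparison above uses them. In the female ones c(3)G was at 8.44 CPM and mei-218 at 2.93 CPM, above the 1.10 CPM that 3 counts would give. In the male ones c(3)G was at 21.8 CPM, above the 1.82 CPM that 3 counts would give. Other members also lay above 3 counts, on 4 to 6 UMIs each. They were male c(2)M (3.64 CPM), male ord, mei-W68 and mei-218 (2.42 CPM each), and female corolla (1.47 CPM) and mei-W68 (1.83 CPM). Female other cells held 6.96 CPM of c(3)G and 6.30 CPM of mei-218, and male other cells 57.4 CPM of c(3)G. Female germ cells held 129 CPM of c(3)G and 15.4 CPM of mei-218, and male germ cells 180 CPM of c(3)G. The 3 values given first, for c(3)G and mei-218, thus did not reach the germ-cell level.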

How the results depend on the processing

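Of 358 alternative values of member ratios, none changed the direction of a call, 312 stayed within the counting interval and 46 moved beyond it. In the unsexed library the count by pgc class was 2 or, at a 2-fold limit, 3 (with 19.3% of all genes called higher and 11.5% lower). The unsexed count against other cells was 4 or 5. By pgc class, the female count of 1 became 2 at a 2-fold limit (10.2% higher and 5.06% lower). The male count of 1 became 0 with at least 3 of 6 germ genes without pgc and with pgc read after thinning to 5000 UMIs. It also became 0 with cells of at least 5000 UMIs (0.387% to 0.506% higher over these settings). Between the sexes the count of 0 became 2 at a 1.5-fold limit (1 higher and 1 lower in female cells, against 10.1% and 1.46% of all genes) and 2 in germ cells with no neural marker UMI. Against other cells the female count of 5 became 3 with at least 20 CPM in 1 group (12.6% higher). The male count of 2 became 0 with TMM scaling, 5 with at least 2 of 7 germ genes, 1 with at least 3 of 6, 5 with the dense tables, 5 at a 2-fold limit, 5 against other cells with 0 germ genes and 0 with cells of at least 5000 UMIs. Of all genes 0.777% to 0.958% were higher where that count was 0 or 1, and 10.4% to 17.7% where it was 5. The cause was not tested. Ratios by pgc class moved over 1.5 times include cona (4.81 to 15.7) and ord (2.19 to 3.68) in the female library. Other ratios moved that far include ord between the sexes (0.437 to 0.772) and cona against other cells in the male library (2.91 to 76.9). The ratio of mei-218 against other cells in the unsexed library (1.11 to 2.53) is also among them. Ratios against 0 UMIs were not computed for 6 settings of single members. No paired analysis was possible because each group has 1 library. The level of mei-W68 was under the limit of 5 CPM in every comparison, so it passed the filter in none.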
